A study of Mus musculus with 36 samples.

Results

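The scavenger receptor genes Marco, Msr1, Colec12, Scarb1, Scarb2 and Olr1 were followed across cells placed in the airways of newborn mice. They were chosen by name. Each had exactly 1 probe set that carried a single symbol, and together they make up 6 of the 19938 genes read from the arrays. By common classification Marco, Msr1 and Colec12 belong to the class A type, with collagen-like stalks. Scarb1 and Scarb2 are class B receptors and Olr1 is a class E receptor, so the set is called here the 6 scavenger receptors.

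Gene expression was measured on 36 arrays in 9 groups of 4 samples, all from C57BL/6 mice. Wild-type donors carried both CD45.1 and CD45.2. Before transfer, sorted monocytes came from adult bone marrow (6 to 12 weeks) and from fetal liver at E15.5, macrophages from yolk sac at E12.5, and alveolar macrophages from the lavage of adult lungs (6 to 12 weeks). Each population was given through the nose to neonatal Csf2rb-/- mice, and after 6 weeks the cells carrying both donor CD45 forms were sorted from lavage. Descendants are named by origin as BM-derived (bone marrow), FL-derived (fetal liver), YS-derived (yolk sac) or AM-derived (alveolar macrophage) cells. Native alveolar macrophages, sorted from wild-type mice aged 6 weeks that received no cells, were the control. The recipients lack the beta chain of the GM-CSF receptor, on which alveolar macrophages depend, whereas the native controls matured in a lung of normal genotype. Transfer, recipient genotype and an initially empty niche therefore cannot be told apart in any comparison with native cells.

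Scavenger receptors bind modified lipoproteins, microbial surfaces, dying cells and particles, and carry them into the cell. On alveolar macrophages they take part in clearing inhaled particles, bacteria and surfactant lipid. Marco binds unopsonised bacteria and particles, Msr1 (SR-A) takes up modified LDL and bacterial products, and Colec12 is a membrane collectin with a C-type lectin domain. Olr1 (LOX-1) binds oxidised LDL, Scarb1 (SR-BI) exchanges cholesterol with HDL, and Scarb2 (LIMP-2) is a lysosomal membrane protein that delivers glucocerebrosidase.

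All values are log2 levels as deposited, where 1 unit is a 2-fold difference. Levels of different genes come from different probes and are not set against each other. All 6 genes exceeded the median of the table (4.62) in at least 4 arrays and were tested. Differences were tested with limma over 12244 genes and are called where the Benjamini-Hochberg adjusted p lies under 0.05. A fold whose lower group mean lies under the table median was computed against that median and is given as "at least". The correlation between 2 arrays of a group ran from 0.977 to 0.991 over the 19938 genes. Over the genes tested, array 4 of the adult alveolar macrophages was the least like its group (mean correlation 0.963). All 9 measured alveolar macrophage markers lay above the table median in each of the 6 lavage groups, against 4 or 5 of 9 in the precursors. Csf2rb itself had a mean of 9.65 to 9.79 in the 4 transferred groups and 9.85 in native cells. In bulk samples, fewer cells of a type and less RNA per cell cannot be told apart.

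**Figure D1:**
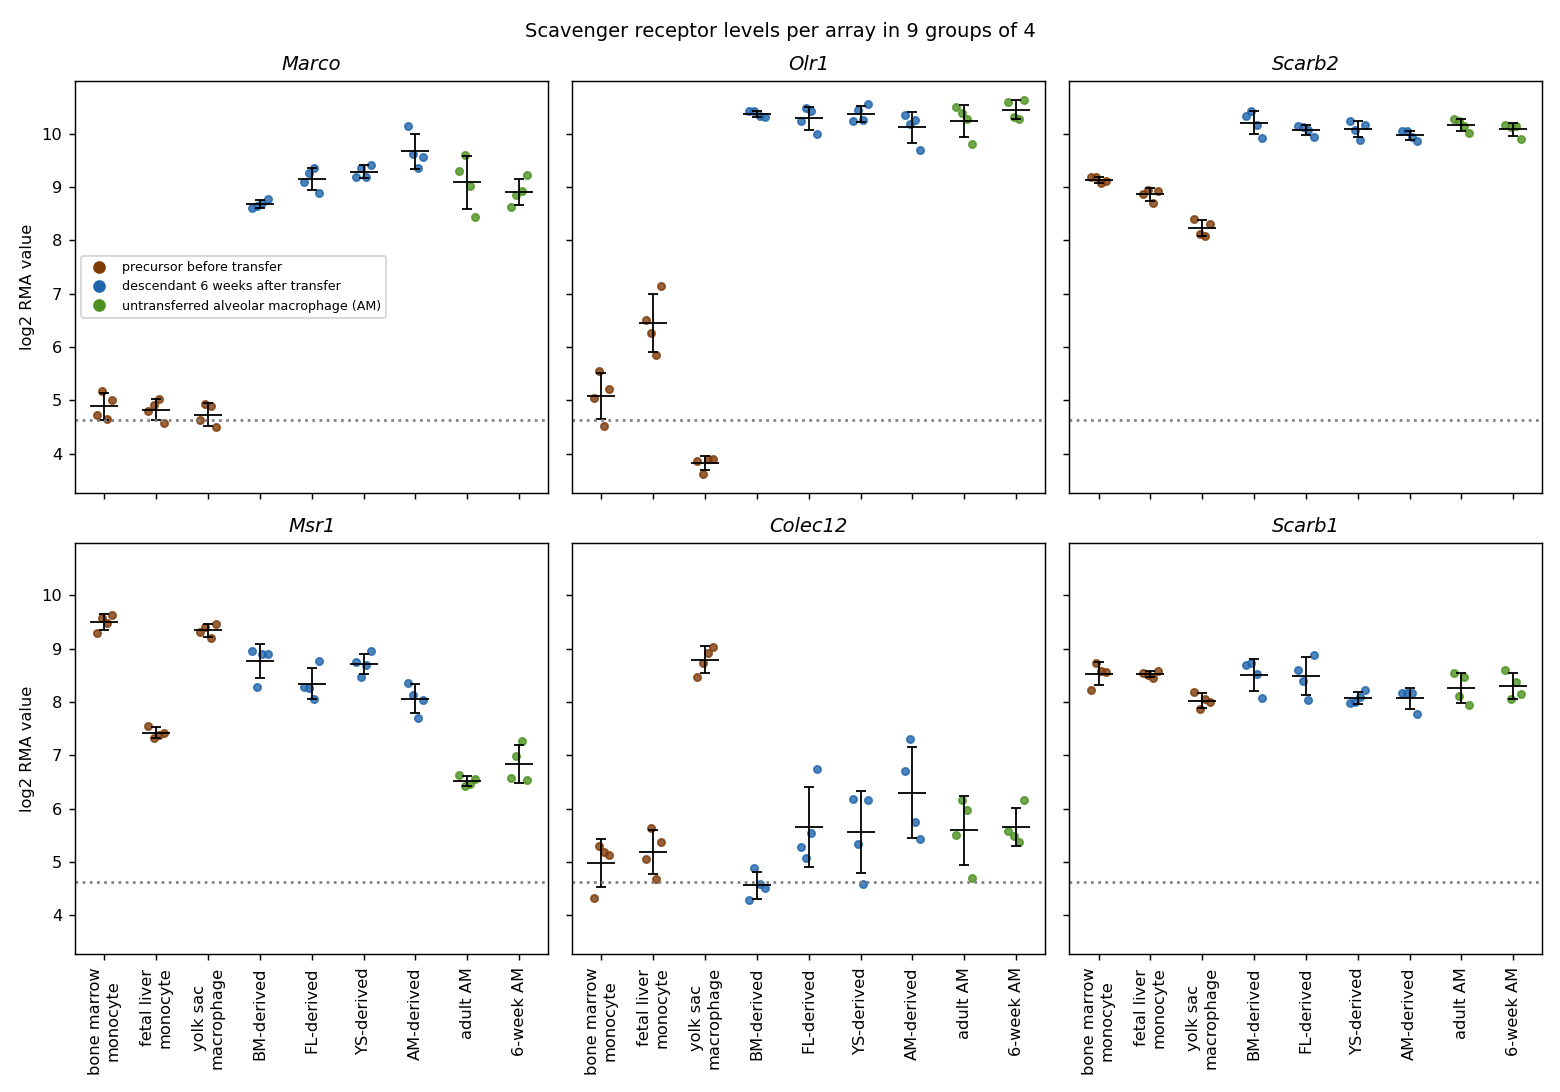
Log2 level of each of the 6 scavenger receptors (one panel per gene) in each of the 9 groups. Points are arrays, bars the mean ± SD (n = 4), and the dotted line is the table median. Marco, Olr1 and Scarb2 separate the lavage groups from the precursors. Msr1 separates transferred from untransferred alveolar macrophages, and Scarb1 lies between 7.78 and 8.88 on every array.

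Marco, Olr1 and Scarb2 rose from every one of the 3 precursors to its descendants in the lung. Starting from bone marrow, 4 of the 6 receptors were called, where 36.4% of all genes tested were called. Of these, 3 were higher in the descendants (20.3% of all genes) and 1 lower (16.1%). Starting from fetal liver, 4 were called (38.3%), all of them higher (20.4%). Starting from yolk sac, 5 were called (42.9%), with 3 higher (19.6%) and 2 lower (23.2%). The shares of all genes are large, so these counts say little about the receptors as a set. The median difference of the 6 was 0.52, 1.07 and 0.95, beside medians of all genes of -0.02, -0.02 and 0.00. When adult alveolar macrophages were moved to a new lung, 1 of the 6 was called (0.702% of all genes), and that gene was Msr1.

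Marco was near the table median in all precursors. Its levels were 4.73, 5.18, 4.64 and 5.01 on the 4 arrays of bone marrow monocytes, and 8.61, 8.65, 8.70 and 8.77 in BM-derived macrophages. In fetal liver monocytes they were 4.79, 4.91, 5.02 and 4.57, and in FL-derived macrophages 9.10, 9.27, 9.35 and 8.88. Yolk sac macrophages gave 4.63, 4.93, 4.89 and 4.49, and YS-derived macrophages 9.18, 9.35, 9.18 and 9.41. No precursor array reached any array of its descendants. The rise in Marco was 13.8-fold from bone marrow (log2 difference 3.79 ± 0.18 SE, n = 4 per group, adjusted p = 2.979e-18), 20.1-fold from fetal liver and 23.4-fold from yolk sac, folds that are approximate because the precursor levels are dim.

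Olr1 rose from uneven starting points. Bone marrow monocytes had 5.05, 5.54, 4.51 and 5.22, fetal liver monocytes 6.51, 6.26, 5.85 and 7.15, and yolk sac macrophages 3.86, 3.62, 3.90 and 3.90. The 3 sets of arrays did not overlap, with fetal liver the highest and yolk sac below the table median. Their descendants all lay between 10.00 and 10.55. Olr1 thus rose 39.2-fold from bone marrow (5.29 ± 0.20, adjusted p = 4.983e-21), 14.4-fold from fetal liver (3.84 ± 0.20) and at least 53.8-fold from yolk sac (6.55 ± 0.20).

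Scarb2 showed the same direction at a smaller size. Its levels were 9.19, 9.18, 9.07 and 9.11 in bone marrow monocytes and 10.33, 10.42, 10.16 and 9.92 in BM-derived macrophages. They were 8.86, 8.95, 8.70 and 8.92 in fetal liver monocytes and 10.14, 10.12, 10.07 and 9.94 in FL-derived macrophages. Yolk sac macrophages had 8.39, 8.11, 8.08 and 8.30 and YS-derived macrophages 10.23, 10.06, 9.88 and 10.17. In each pair the arrays did not overlap, and the rises were 2.10-fold, 2.32-fold and 3.64-fold (adjusted p = 3.306e-10, 1.591e-11 and 1.977e-16).

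These 3 genes rose together and were also the only receptors with a promoter window kept. The 250 bases before the start of each are shown, from RefSeq on GRCm38.p6, all on the minus strand and written 5′ to 3′. Capitals mark matches to short motifs, searched on both strands, and positions count back from the start. The windows are chr1:120505025-120505274 for Marco, chr6:129507166-129507415 for Olr1 and chr5:92505658-92505907 for Scarb2. The start given for Olr1 lies 185 bases inside the listed gene, and its positions count from there, whereas those of Marco and Scarb2 are at the gene's end.
Marco: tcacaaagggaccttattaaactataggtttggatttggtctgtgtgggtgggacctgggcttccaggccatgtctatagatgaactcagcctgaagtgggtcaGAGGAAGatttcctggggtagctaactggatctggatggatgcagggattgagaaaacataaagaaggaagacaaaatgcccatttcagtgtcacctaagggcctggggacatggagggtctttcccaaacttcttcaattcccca
Olr1: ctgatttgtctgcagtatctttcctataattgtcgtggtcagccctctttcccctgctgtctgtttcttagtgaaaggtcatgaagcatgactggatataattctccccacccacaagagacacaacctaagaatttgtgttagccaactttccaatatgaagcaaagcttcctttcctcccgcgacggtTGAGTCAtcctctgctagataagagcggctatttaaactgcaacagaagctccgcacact
Scarb2: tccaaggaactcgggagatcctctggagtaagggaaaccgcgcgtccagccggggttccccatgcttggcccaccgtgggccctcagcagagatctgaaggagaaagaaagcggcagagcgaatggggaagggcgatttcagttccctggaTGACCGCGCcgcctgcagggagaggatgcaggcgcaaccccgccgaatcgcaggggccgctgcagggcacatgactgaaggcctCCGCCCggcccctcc
The Marco window holds the PU.1 core GAGGAAG at -146, which 10.6% of all 32851 such windows hold. The Olr1 window holds an AP-1 match (TGANTCA) at -60, present in 6.7% of windows. The Scarb2 window holds an antioxidant response element (TGACNNNGC) at -99 (10.2% of windows) and, read on the other strand, a GC box (GGGCGG) at -15 (32.7%). The E-box CACGTG, found in 6.0% of windows, matched none of the 3, and no motif was shared between them. GC content was 47.6% for Marco, 45.2% for Olr1 and 65.6% for Scarb2. A match is a description of the letters and not a site.

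Msr1 moved in opposite directions by origin. It was 9.29, 9.58, 9.49 and 9.64 in bone marrow monocytes and 8.95, 8.29, 8.91 and 8.90 in BM-derived macrophages, a fall of 1.67-fold (log2 difference -0.74 ± 0.16, adjusted p = 0.0004241). It was 9.31, 9.41, 9.20 and 9.46 in yolk sac macrophages and 8.75, 8.47, 8.69 and 8.95 in YS-derived macrophages (-0.63 ± 0.16, adjusted p = 0.001846). Fetal liver monocytes started lower, at 7.56, 7.33, 7.39 and 7.43, and FL-derived macrophages rose to 8.29, 8.26, 8.06 and 8.77 (0.92 ± 0.16, adjusted p = 1.998e-05). None of these pairs overlapped. The 3 kinds of descendant so came to lie between 8.06 and 8.95, from precursors that spanned 7.33 to 9.64.

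Msr1 also rose in alveolar macrophages that were themselves transferred. Adult alveolar macrophages had 6.64, 6.43, 6.46 and 6.56 before transfer, and AM-derived macrophages had 8.35, 8.14, 7.70 and 8.04. The groups did not overlap. The rise was 2.90-fold (1.54 ± 0.16, adjusted p = 9.792e-07), and by p-value Msr1 ranked 1 of all 12244 genes in that comparison. Without any single array the difference stayed between 1.44 and 1.66 and was called each time.

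Colec12 was high in yolk sac macrophages alone among the groups. Its levels there were 8.47, 8.74, 8.93 and 9.04, against 6.18, 5.34, 4.58 and 6.17 in YS-derived macrophages, a fall of 9.38-fold (-3.23 ± 0.37, adjusted p = 7.921e-09). Bone marrow monocytes had 4.33, 5.31, 5.18 and 5.13 and BM-derived macrophages 4.28, 4.88, 4.58 and 4.51, which overlap. Fetal liver monocytes had 5.06, 5.64, 4.68 and 5.37 and FL-derived macrophages 5.29, 5.07, 5.54 and 6.75, which overlap as well. These last changes, -0.42 and 0.47 with an SE of 0.37, were not called (adjusted p = 0.3986 and 0.3538). Arrays of 1 group spread widely for Colec12 in adult alveolar macrophages (SD 0.65) and in FL-, YS- and AM-derived macrophages (up to 0.86 in the last). The SD was 0.25 in both yolk sac and BM-derived macrophages.

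Scarb1 was not called over any transfer. Its group means ran from 8.03 to 8.53, and its changes were -0.02, -0.04, 0.05 and -0.19 from bone marrow, fetal liver, yolk sac and alveolar macrophages, with adjusted p of 0.84 to 0.93. For the other receptors in transferred alveolar macrophages, the differences were 0.58 for Marco (adjusted p = 0.1904, 0.04319 without array 2 of the adult alveolar macrophages), 0.71 for Colec12, -0.13 for Olr1 and -0.19 for Scarb2.

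**Figure D2:**
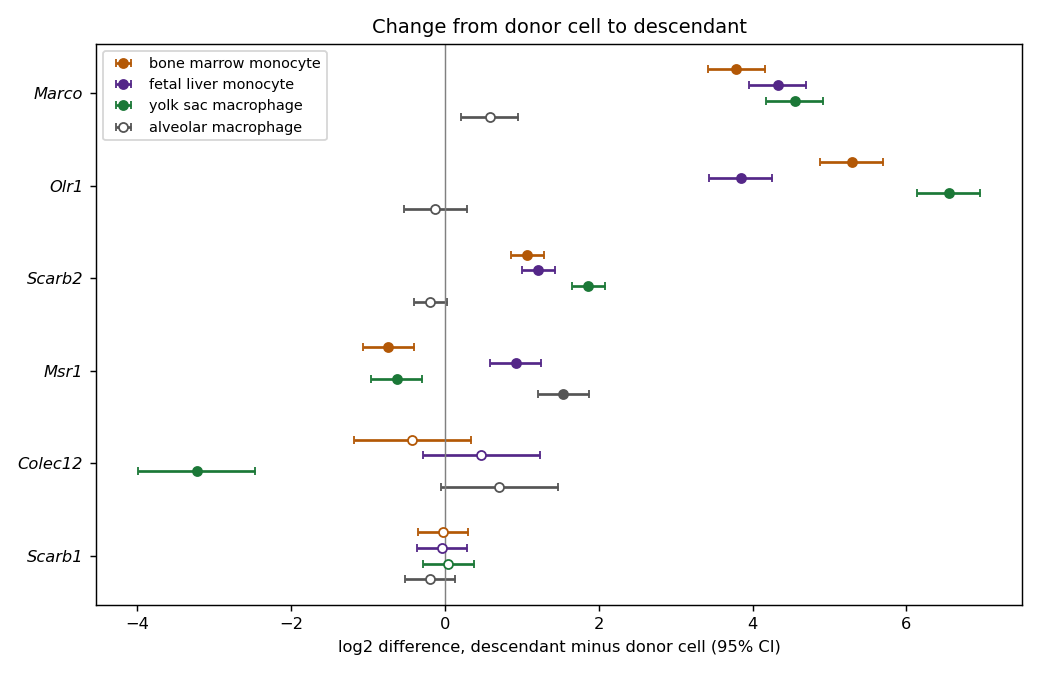
Change of each receptor from donor cells to their descendants in the lung, as log2 difference with its unadjusted 95% confidence interval (n = 4 per group), one colour per origin. Filled points have an adjusted p under 0.05. Marco, Olr1 and Scarb2 lie above 0 for all 3 precursors, whereas Msr1 fell from bone marrow and yolk sac and rose from fetal liver and alveolar macrophages.

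Whether the change differed between origins was tested directly. Of the 6 receptors 2 were called between the fetal liver and bone marrow changes (9.94% of all genes), 4 between yolk sac and bone marrow (30.6%) and 4 between yolk sac and fetal liver (22.9%). The change of Msr1 was higher from fetal liver than from bone marrow by 1.66 ± 0.23 (adjusted p = 5.261e-06) and lower from yolk sac than from fetal liver by -1.55 ± 0.23 (adjusted p = 2.67e-06). For Olr1 the yolk sac change exceeded the fetal liver change by 2.71 (adjusted p = 2.749e-09), and by 1.91 (2.344e-06) when values under the table median are set to it. The excess over the bone marrow change, 1.26 (adjusted p = 0.0007923), rests on yolk sac values under that median. It was 0.48 and not called (adjusted p = 0.1911) with those values set to it. The fetal liver change of Olr1 was smaller than that from bone marrow (-1.45, adjusted p = 0.0007027). Scarb2 rose more from yolk sac than from bone marrow (0.79) and fetal liver (0.65). Colec12 differed by -2.81 and -3.70 in these same comparisons. Marco rose more from yolk sac than from bone marrow by 0.76 (adjusted p = 0.02339), a call lost without array 2 of the bone marrow monocytes (0.0558) or array 4 of the yolk sac macrophages (0.05703), and with arrays centred on their medians (0.05722).

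The precursors themselves differed before transfer in every receptor but Marco. Fetal liver against bone marrow monocytes gave 2 called receptors (19.5% of all genes), yolk sac macrophages against bone marrow monocytes 4 (42.2%) and yolk sac against fetal liver 5 (33.1%). Fetal liver monocytes had 4.20-fold less Msr1 than bone marrow monocytes (-2.07 ± 0.16, adjusted p = 1.18e-11) and 2.57-fold more Olr1 (1.36 ± 0.20, adjusted p = 4.51e-06). Yolk sac macrophages carried 14.0-fold more Colec12 than bone marrow monocytes and 12.2-fold more than fetal liver monocytes (adjusted p = 2.56e-10 and 1.107e-09). Msr1 was 3.77-fold higher in yolk sac macrophages than in fetal liver monocytes. Its difference from bone marrow monocytes was -0.16 (95% interval -0.49 to 0.17, adjusted p = 0.4577).

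Yolk sac macrophages had less of the lysosomal Scarb2 than bone marrow (-0.91) and fetal liver monocytes (-0.64, adjusted p = 9.448e-06). Scarb1 was lower there too, by -0.50 (adjusted p = 0.01166) and -0.49 (adjusted p = 0.01613). The Scarb1 calls lie close to the threshold, at an adjusted p of 0.051 against bone marrow with arrays centred on their medians and 0.05334 against fetal liver without array 2 of the yolk sac macrophages. Between the monocytes the Scarb2 difference of fetal liver minus bone marrow was -0.28 with no overlap and was not called, at an adjusted p of 0.06322 (0.04982 with a trended robust prior). Marco differed by -0.07 to -0.16 between precursors and was not called (adjusted p = 0.5091 to 0.8632).

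Markers of other cells were read beside the high Colec12 of yolk sac macrophages, since this receptor is known from endothelium and stroma. Of 8 endothelial markers 5 were not above the table median there, with Cdh5 at 4.36 and Kdr at 3.30. Of the other 3, Egfl7 had a mean of 5.96 against 4.73 and 4.88 in bone marrow and fetal liver monocytes, Pecam1 4.94 against 4.80 and 4.49, and Vwf was lower there than in either monocyte. Of 8 stromal markers 5 were not above it, with Pdgfra at 3.87, Dcn at 3.44 and Lum at 4.28 (2.90 and 2.71 in the monocytes). The other 3 were Col1a1 (5.87 against 5.68 and 5.60), Col1a2 (5.66 against 5.33 and 5.36) and Col3a1 (5.51 against 5.17 and 5.13). The summed level of the endothelial list was 7.56 to 7.80 in yolk sac macrophages, against 7.28 to 7.43 in both monocytes, and that of the stromal list 7.58 to 8.04 against 7.45 to 7.80. Yolk sac endoderm markers were above the table median in 3 of 7 cases, with a summed level of 7.56 to 8.35 against 6.80 to 7.10 in the monocytes. The embryonic globin Hbb-y stood at 10.44, and the erythroid list at 10.43 to 11.51 against 6.28 to 6.67. The part of these markers in the Colec12 level was not tested.

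Msr1 set all transferred macrophages apart from native ones. Native alveolar macrophages had levels of 6.57, 6.98, 7.27 and 6.54, and the lowest of the 16 transferred arrays had 7.70. Msr1 was 3.79-fold higher in BM-derived macrophages (1.92, 95% interval 1.59 to 2.25, adjusted p = 3.501e-09), 2.84-fold in FL-derived (1.51, adjusted p = 7.882e-07), 3.66-fold in YS-derived (1.87, adjusted p = 3.43e-09) and 2.33-fold in AM-derived macrophages (1.22, adjusted p = 1.988e-05). By p-value it ranked 1, 2, 2 and 9 of 12244 genes. These 4 comparisons share the same 4 native arrays and are not independent of each other.

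Besides Msr1, the same comparisons called only Marco in AM-derived macrophages. With Msr1 counted, 1 of 6 was called against native cells in BM-derived macrophages (1.31% of all genes), 1 in FL-derived (1.05%) and 1 in YS-derived (1.72%). In AM-derived macrophages 2 were called (1.07%). Adult alveolar macrophages that were not transferred gave 0 of 6 called by limma, beside 0.0163% of all genes called. The count of receptors was also 0 at an unadjusted p under 0.05. Msr1 in these adult cells differed from that of native cells aged 6 weeks by -0.32 (95% interval -0.65 to 0.01, adjusted p = 0.9987).

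With any single array left out, Msr1 stayed between 1.82 and 2.08 for BM-derived, 1.37 and 1.65 for FL-derived, 1.77 and 2.02 for YS-derived and 1.12 and 1.36 for AM-derived macrophages, and it was called each time. Markers of other cells were read beside it. Of 6 monocyte markers measured, S100a9, Itgam, F13a1 and Plac8 were not above the table median in any of the 6 lavage groups. The summed monocyte list was 8.84 to 9.83 in native cells and 9.38 to 10.39 in adult alveolar macrophages. It was 8.81 to 11.14 in BM-derived, 10.02 to 12.07 in FL-derived, 10.36 to 10.89 in YS-derived and 10.19 to 10.97 in AM-derived macrophages, so that it lay above all native arrays in the last 3. The part of these markers, and of those that follow, in the Msr1 result was not tested. Most of that sum is S100a8, with means of 9.15 in native cells and 10.14 to 10.86 in the transferred groups. Array 2 of the BM-derived macrophages had a monocyte sum of 8.81, below all native arrays. Its Msr1 level of 8.29 lay above all native arrays. Within its group that array was the lowest in both. In FL-derived macrophages the sum and Msr1 had the same order, from array 3 (10.02 and 8.06) to array 4 (12.07 and 8.77). The order was not shared in YS-derived macrophages, where array 4 had the lowest sum (10.36) and the highest Msr1 (8.95), nor in AM-derived ones. Array 4 of the adult alveolar macrophages had a monocyte sum of 10.39 and an Msr1 level of 6.56.

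The summed level of 8 neutrophil markers was at most 9.09 in native and 8.48 to 8.84 in adult cells. It was 9.32 to 9.97 in BM-derived macrophages, above every native array, 7.60 (array 4) to 9.64 in FL-derived, 8.87 to 9.68 in YS-derived and 8.70 to 9.31 in AM-derived macrophages. Mmp8, a neutrophil collagenase, had the highest mean of these markers in every lavage group. Its means were 7.95 in native, 8.05 in adult, 9.35 in BM-derived, 8.39 in FL-derived, 9.03 in YS-derived and 8.76 in AM-derived cells. Means of Elane and Camp were at most 4.68 and 4.79 in the lavage groups. Prtn3, Mpo, Ngp, Ltf and Retnlg were not above the table median in any lavage group. The sum of 8 lung epithelial markers was 8.90 to 9.24 in native, 8.84 to 9.30 in adult, 9.15 to 9.55 in BM-derived, 8.84 to 9.50 in FL-derived, 9.20 to 9.51 in YS-derived and 9.14 to 9.62 in AM-derived cells. Of these markers Cdh1 alone had a higher mean in every transferred group (8.34 to 8.62) than in native cells (7.60). Epcam was lower in every transferred group (4.64 to 6.25, native 6.66). Scgb1a1 lay on both sides of its native mean (4.55 to 6.44, native 5.33).

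**Figure D3:**
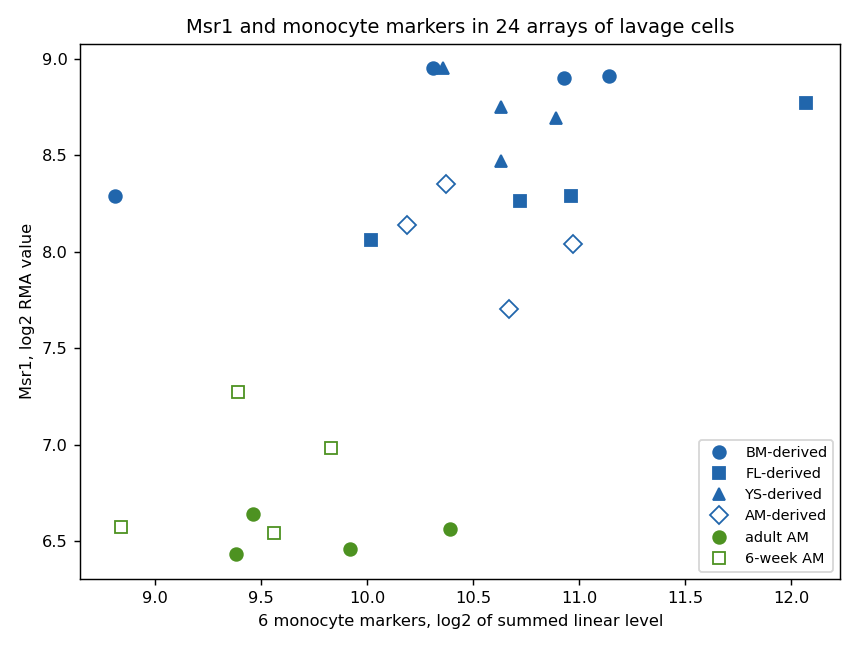
Msr1 log2 level (vertical) of each of the 24 lavage arrays against the log2 of its summed linear level of 6 monocyte markers (horizontal), with blue symbols for the 4 transferred groups and green for adult (adult AM) and native (6-week AM) alveolar macrophages. Transferred arrays lie at Msr1 levels from 7.70 to 8.95 and the others from 6.43 to 7.27, and most but not all transferred arrays also have the higher monocyte sums.

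Marco in AM-derived macrophages (10.14, 9.61, 9.35 and 9.56) exceeded native cells (8.63, 8.85, 8.92 and 9.23) by 0.76 ± 0.18 (adjusted p = 0.02547). The arrays did not overlap. The call was lost in 5 of 8 fits with 1 array left out: without array 1 (0.176) or 2 (0.05661) of the AM-derived macrophages, or array 1 (0.1572), 2 (0.07779) or 3 (0.06583) of the native ones. It was also lost when only the compared groups were fitted (0.1144). Marco differed from native cells by -0.23, 0.24 and 0.37 in BM-, FL- and YS-derived macrophages, none called (adjusted p = 0.8598, 0.9634 and 0.5732).

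Olr1 and Scarb2 were not called against native cells in any transferred group. Olr1 in native cells was 10.59, 10.31, 10.27 and 10.63, and its differences ran from -0.34 in AM-derived to -0.08 in BM-derived macrophages. The 95% intervals together spanned -0.74 to 0.33. Scarb2 in native cells was 10.16, 10.12, 10.15 and 9.89, with differences of -0.10 to 0.13 and intervals within -0.32 to 0.34. Colec12 in BM-derived macrophages lay below every native array (5.58, 5.48, 5.38 and 6.17). That difference of -1.09 was not called (adjusted p = 0.2449), although it was with only the compared groups fitted (0.01823).

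**Figure D4:**
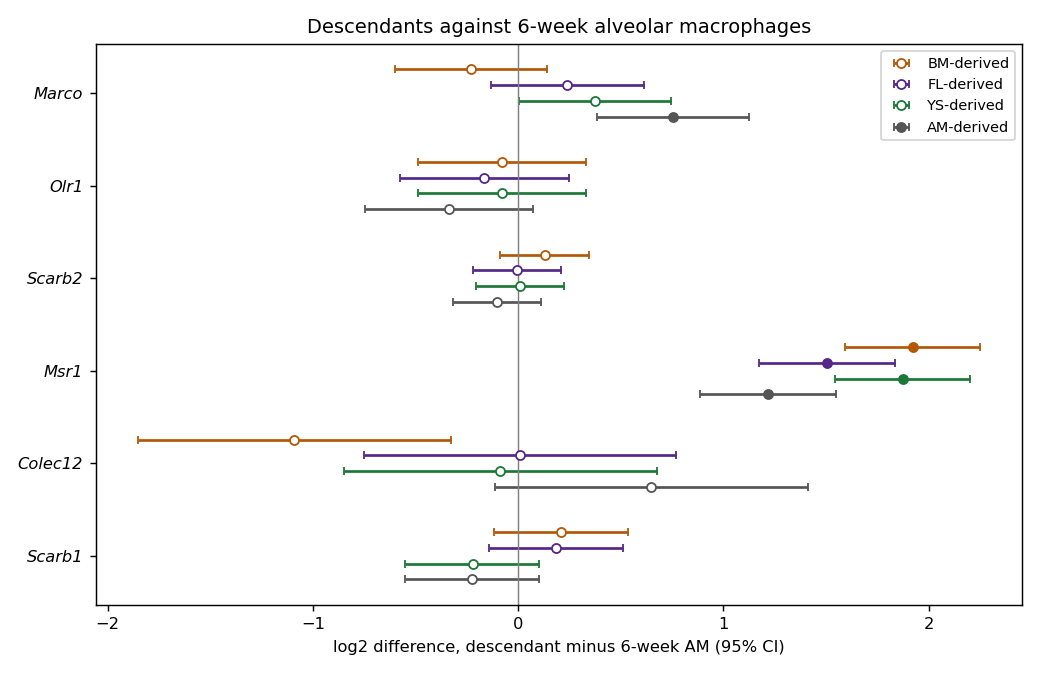
Difference of each receptor from native alveolar macrophages of 6 weeks, as log2 difference with its unadjusted 95% confidence interval (n = 4 per group), for the 4 transferred groups (colours). Filled points have an adjusted p under 0.05. Msr1 lies at 1.22 to 1.92 and is filled in all 4 groups, and of the other receptors only Marco in AM-derived macrophages (0.76) is filled.

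Few calls were made between descendants of different origin. Of the 6 pairs of transferred groups, BM-derived against AM-derived macrophages had 3 of 6 receptors called (0.425% of all genes). Marco was lower in BM-derived cells by -0.99 ± 0.18 (adjusted p = 0.003147), with no overlap between arrays, and it was called with each array left out. Colec12 was lower, at 4.28, 4.88, 4.58 and 4.51 against 6.70, 7.30, 5.76 and 5.44 (-1.74 ± 0.37, at least 3.20-fold, adjusted p = 0.01903), and Msr1 was higher by 0.70 ± 0.16 (adjusted p = 0.03796), with arrays that overlap.

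The last pair of calls was less stable. Colec12 lost its call without array 1 or 3 of the BM-derived or array 1 or 2 of the AM-derived macrophages (adjusted p up to 0.1319) and with only the compared groups fitted (0.1005). Msr1 lost its call without array 1, 3 or 4 of the BM-derived or 2, 3 or 4 of the AM-derived macrophages, with centred arrays (0.06625) and with only the compared groups fitted (0.278). The other 5 pairs had 0 receptors called by limma. The share of all genes called was 0.417% for FL- against BM-derived, 0.833% for YS- against BM-derived and 0.270% for YS- against FL-derived macrophages. It was 0.335% for FL- against AM-derived and 0.588% for YS- against AM-derived macrophages. In each of these pairs 2 or 3 receptors had an unadjusted p under 0.05, a threshold for which no share of all genes is given. The Marco difference of YS- minus BM-derived macrophages was 0.60 with no overlap and was not called (adjusted p = 0.1736, 0.04039 with only the compared groups fitted). Msr1 in YS- against AM-derived macrophages came nearest (0.66 ± 0.16, adjusted p = 0.05108), and it was called without array 2 of the YS-derived (0.04127) or array 1 of the AM-derived macrophages (0.02686).

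Across all 9 groups the receptors differed in how widely they ranged. Group means spanned 6.63 log2 units for Olr1, 4.93 for Marco, 4.23 for Colec12, 2.98 for Msr1, 1.98 for Scarb2 and 0.50 for Scarb1, which places them at percentiles 99.5, 98.4, 97.5, 94.3, 87 and 31.5 of the genes tested. Over the 6 lavage groups alone, Msr1 spanned 2.24 (percentile 99.7), Colec12 1.74 (99.2), Marco 0.99 (97.2), Scarb1 0.44 (75.4), Olr1 0.34 (56.8) and Scarb2 0.23 (29.1). The position of a gene on this scale is a description of these arrays.

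Ordered by level, 10 of 48 neighbouring pairs of groups differed at an adjusted p under 0.05. Marco ran from AM-derived through YS-derived, FL-derived, adult, native and BM-derived macrophages to bone marrow, fetal liver and yolk sac precursors, with a called gap only between BM-derived macrophages and bone marrow monocytes. Msr1 ran from bone marrow monocytes and yolk sac macrophages to BM-, YS-, FL- and AM-derived macrophages, then fetal liver monocytes, native and adult alveolar macrophages. Its called gaps lay below yolk sac macrophages (0.58, adjusted p = 0.003778; 42.4% of all genes called in that pair), below AM-derived macrophages (0.63, adjusted p = 0.001971; 39.1%) and below fetal liver monocytes (0.59, adjusted p = 0.003911; 37.7%). Colec12 had a called gap only between yolk sac macrophages and AM-derived macrophages (2.50; 43.4%), and Scarb1 had none. Scarb2 had called gaps between AM-derived macrophages and bone marrow monocytes (0.84; 36.3%) and between fetal liver monocytes and yolk sac macrophages. Olr1 had called gaps between AM-derived macrophages and fetal liver monocytes (3.67), and then at each step down to bone marrow and yolk sac. The last of these gaps was 1.26 as measured and 0.48 with values under the table median set to it (adjusted p = 0.04543).

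The genes whose 9 group means ran most like each receptor were sought for the 4 receptors that spanned at least 2 units. For Marco they were Lepr (root mean square difference 0.25 log2 units, Pearson r = 0.994 over the 9 group means), the leptin receptor, then Bhlhe40 (0.25), Ccnd2 (0.28) and Tc2n (0.28). For Olr1 they were F11r (0.34, r = 0.997), a junctional adhesion molecule, Perp (0.43), Gpnmb (0.44) and Axl (0.50), a receptor for dying cells. For Msr1 they were Oas1a (0.36, r = 0.943), Slfn8 (0.45), Ifi27l2a (0.52) and Oasl2 (0.53). For Colec12 they were Tnf (0.38, r = 0.958), Smagp (0.43), Tnfaip3 (0.43) and Atf3 (0.45). Such likeness rests on 9 points that share arrays. Oas1a, an oligoadenylate synthetase, had means of 9.35 in bone marrow monocytes, 7.04 in fetal liver monocytes and 8.61 in yolk sac macrophages. It stood at 7.53 to 8.11 in the 4 transferred groups and at 6.94 and 6.75 in adult and native alveolar macrophages.

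Other scavenger receptors were taken from a list of 20, of which 14 could be tested. From bone marrow 5 of 14 rose and 0 fell, where 20.3% of all genes were higher and 16.1% lower. From fetal liver 6 rose (20.4%) and 0 fell, and from yolk sac 4 rose (19.6%) and 3 fell (23.2%). The list's medians were 0.04, 0.11 and 0.15, beside -0.02, -0.02 and 0.00 for all genes, and 0.02, 0.09 and 0.06 with means under the table median set to it. Cd36, a class B receptor for fatty acids and oxidised LDL, rose at least 56.8-fold from bone marrow, at least 69.6-fold from fetal liver and by 1.41 on the log2 scale from yolk sac. The mannose receptor Mrc1 rose by 6.37 from bone marrow, where its level was dim (4.69), and at least 80.1-fold from fetal liver, and it fell from yolk sac (-0.89, adjusted p = 0.0007155). Cd68, a class D receptor of endosomes, rose by 1.06, 1.80 and 1.22. Clec7a (Dectin-1, which binds fungal glucans) had means of 10.01, 9.50 and 5.55 in bone marrow, fetal liver and yolk sac precursors and 10.97, 10.82 and 11.01 in their descendants. Stab1, a receptor of tissue macrophages and sinusoids, stood at 10.33 in yolk sac macrophages and at 4.55 in their descendants, a fall of at least 52.3-fold. Against native cells, where 1.05% to 1.72% of all genes were called, 0 of 14 were called in any transferred group by limma. The count was also 0 at an unadjusted p under 0.05.

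Genes that handle lipoprotein and sterol after uptake formed a list of 16, of which 12 were tested. From bone marrow 9 of 12 rose and 2 fell, where 20.3% of all genes were higher and 16.1% lower. From fetal liver 9 rose (20.4%) and 0 fell, and from yolk sac 9 rose (19.6%) and 2 fell (23.2%). The medians were 2.24, 2.41 and 2.29, beside -0.02, -0.02 and 0.00 for all genes. Ch25h, which makes an oxysterol, rose at least 34.4-fold, at least 35.8-fold and at least 35.9-fold, from precursor means of 3.36 to 4.26 that all lie under the table median. Abcg1, a cholesterol exporter, rose by 3.77, 3.28 and 4.45 on the log2 scale, and Nceh1, a cholesteryl ester hydrolase, by 2.80, 2.58 and 3.61. The lipoprotein lipase Lpl rose by 4.51, 4.84 and 2.67, the lysosomal lipase Lipa by 2.21, 2.76 and 2.36, and the lipid droplet coat Plin2 by 2.12, 1.81 and 0.97. The oxysterol receptor Nr1h3 rose by 2.85, 2.51 and 2.27. Abca1, another exporter, rose by 2.27 and 1.79 from the monocytes and changed by -1.65 from yolk sac. Cyp27a1, a sterol hydroxylase, changed by -2.04 and -2.05 from bone marrow and yolk sac, and by -0.50 from fetal liver (adjusted p = 0.067).

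**Figure D5:**
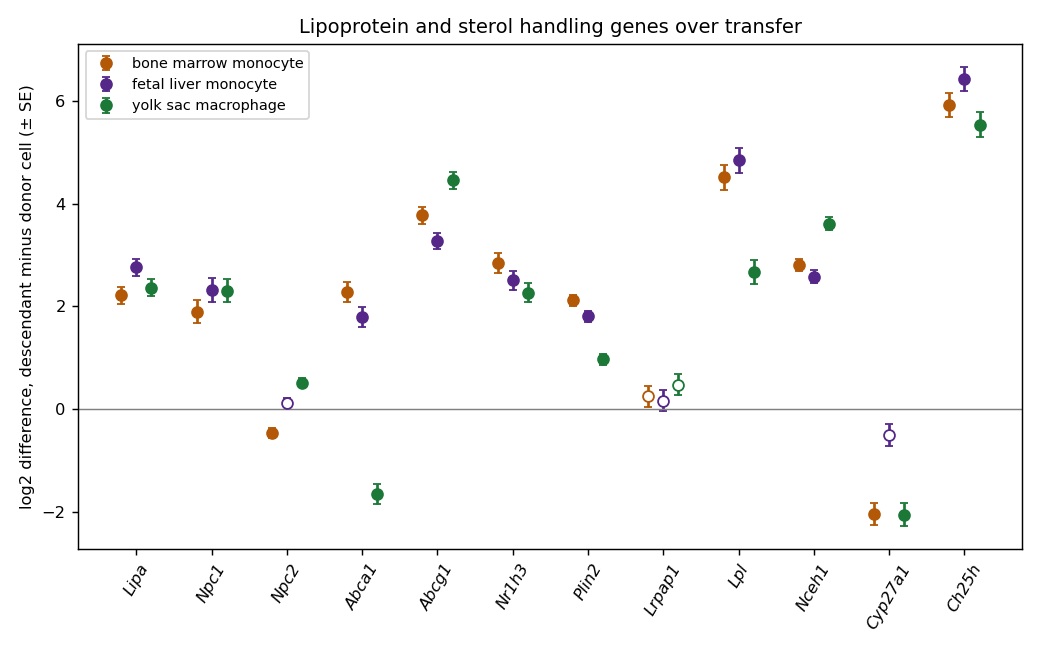
Log2 difference from donor cell to descendant (± SE, n = 4 per group) of the 12 tested genes that handle lipoprotein and sterol after uptake, coloured by origin. Filled points have an adjusted p under 0.05. The Ch25h points (5.54 to 6.42) are set against precursor levels under the table median, so their order among origins has no meaning. Abca1 rose from both monocytes and fell from yolk sac macrophages (-1.65).

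Ch25h and Abca1 also differed between transferred and native macrophages. Mean Ch25h was 8.43 in native and 8.31 in adult alveolar macrophages and 9.60 to 9.79 in the 4 transferred groups. Against native cells it was called in all 4, by 1.17 in AM-derived macrophages (adjusted p = 0.005454) and up to 1.36 in YS-derived ones (adjusted p = 0.0003684). Abca1 was higher in AM-derived (1.03, adjusted p = 0.002306) and YS-derived macrophages (0.72, adjusted p = 0.04735). Of the 12 genes, 1, 1, 3 and 2 were called against native cells in BM-, FL-, YS- and AM-derived macrophages. The shares of all genes called there were 1.31%, 1.05%, 1.72% and 1.07%. In AM-derived macrophages against the adult cells they came from, 2 of 12 were called (0.702% of all genes). They were Ch25h (1.28, adjusted p = 0.002597) and Abca1 (0.81, adjusted p = 0.03218).

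Partners and cargo of the receptors formed a list of 13, with 11 tested. From bone marrow 6 of 11 rose and 0 fell, where 20.3% of all genes were higher and 16.1% lower. From fetal liver 7 rose (20.4%) and 0 fell, and from yolk sac 4 rose (19.6%) and 3 fell (23.2%). The medians were 0.71, 0.91 and 0.23, beside -0.02, -0.02 and 0.00 for all genes. Mertk, a receptor for dying cells, rose at least 23.9-fold from bone marrow, at least 22.9-fold from fetal liver and from 7.56 to 9.05 on the log2 scale from yolk sac. Cav1, which shapes caveolae where Scarb1 is found in other cells, rose at least 16.2-fold, at least 12.2-fold and at least 14.9-fold from precursor levels under the table median. Tlr4, the sensor of bacterial lipopolysaccharide, rose by 1.78 and 1.54 from the monocytes, with 0.25 from yolk sac (adjusted p = 0.05007). Tlr2, a sensor of bacterial lipoprotein, rose by 0.96, 1.13 and 0.97. Psap, the precursor of lysosomal saposins, rose by 0.67 and 1.33 from fetal liver and yolk sac and changed by 0.12 from bone marrow (adjusted p = 0.67). Against native cells 0 of 11 were called by limma in the transferred groups (1.05% to 1.72% of all genes). At an unadjusted p under 0.05 there were 0, 0, 1 and 3 in BM-, FL-, YS- and AM-derived macrophages.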

How the data were processed

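Cells were freed with collagenase (yolk sac, fetal liver), by crushing bones or by flushing lungs, per the labels' protocols, and after sorting gave RNA that was amplified and hybridised to Affymetrix Mouse Gene 1.0 ST arrays. The deposited table holds log2 values of 35556 probe sets, made by the authors with RMA per the submitters' processing notes. RMA gives all arrays a common distribution and compresses small folds of dim genes. The genome build is not given in the sources used here.

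Probe sets with 1 symbol (21789; 1621 had several and 12146 no entry in GEO's platform annotation) were named through RefSeq symbols of GRCm38.p6, of which 21698 matched. The probe set with the highest mean was kept per gene. Testing was limited to genes above the table median, 4.62, in at least 4 arrays. Samples were grouped by title. In limma 3.58.1 (R 4.3.3) a model with 1 mean for each group covered all 36 arrays, with 18 contrasts between groups and 3 interactions, and the remaining pairs of groups for the order of levels. P-values were adjusted by Benjamini-Hochberg within each contrast. The fit was tested on simulated data.

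The labels call the samples biological replicates, and p-values measure the spread between these samples. Their number limits the precision. The receptors and gene lists were chosen with earlier results of these data known. All 6 receptors are named, with up to 4 genes of each list by lowest adjusted p in a contrast (other list genes with values alone), and the 4 genes most alike by group means. Alternatives were a stricter filter and none, means of probe sets, centred arrays, a trended robust prior, array weights, only the compared groups, a replicate block, and each array left out. Setting values under the table median to it was added after seeing the data. Promoter windows were read for Marco, Scarb2 and Olr1. Any window on chromosome 18, where Colec12 lies, was left out.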

Additional observations from a re-analysis of the deposited data

Results flagged for a closer look

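Among 54 sets of 4 arrays (6 receptors in 9 groups), 4 had an array far from the other 3 by Dixon's criterion, which chance alone meets in about 1 of 20 sets. They were Msr1 in BM-derived macrophages, where array 2 was at 8.29 and the nearest at 8.90, Scarb1 in AM-derived macrophages (array 4 at 7.78, nearest 8.17), Scarb2 in native cells (array 4 at 9.89, nearest 10.12) and Olr1 in yolk sac macrophages (array 2 at 3.62, nearest 3.86).

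The change over transfer differed between origins, by the interaction test, in 10 of 18 cases. Of all genes, 9.94% were called between fetal liver and bone marrow and 30.6% between yolk sac and bone marrow. The share was 22.9% between yolk sac and fetal liver. Between fetal liver and bone marrow the difference in change was 1.66 for Msr1 and -1.45 for Olr1. Between yolk sac and bone marrow it was 0.76 for Marco, -2.81 for Colec12, 0.79 for Scarb2 and 1.26 for Olr1, where the last was 0.48 and not called with values under the table median set to it. Between yolk sac and fetal liver it was -1.55 for Msr1, -3.70 for Colec12, 0.65 for Scarb2 and 2.71 for Olr1.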

How the results depend on the processing

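No value of a single receptor changed direction among called values under the alternatives run. Of 1134 such values under settings other than leaving out an array, 1121 kept their direction and their side of the threshold, 7 lost a call and 6 gained one. With 1 array left out, 1131 of 1152 kept both, 18 lost a call and 3 gained one. The count of calls between precursors was 11, and 10 to 11 with an array left out. Over transfer it was 14 (14 to 15) and against native cells 5 (4 to 5). It was 10 (9 to 10) in interactions and 3 (1 to 4) between transferred groups. That last count was 1 without array 1 or 3 of the BM-derived or array 2 of the AM-derived macrophages. With values under the table median set to it, an alternative chosen after seeing the data, the counts were 12 between precursors and 14 over transfer. They were 5 against native cells, 4 between transferred groups and 9 in interactions. Under this setting the Olr1 interaction of yolk sac against bone marrow lost its call (0.48, adjusted p = 0.1911). Scarb2 between the monocytes (0.04045) and Msr1 in YS- against AM-derived macrophages (0.04823) gained one. With the replicate number as a block the counts were 12 between precursors, 14 over transfer, 5 against native cells, 3 between transferred groups and 10 in interactions, and 11 neighbouring pairs in the order of levels differed instead of 10. The call gained was Scarb2 between fetal liver and bone marrow monocytes (adjusted p = 0.03914, 0.06322 without the block). The numbers do not pair the samples: in no comparison were all correlations of same-numbered deviations over 0.1 (range -0.23 to 0.42). Centring arrays on their medians moved the median of all genes from -0.01 to -0.13 in the yolk sac change minus the bone marrow change. Each receptor has 1 probe set, so other probe sets gave no value. Marco in precursors, Olr1 in yolk sac macrophages, and Colec12 in both monocytes and BM-derived macrophages lie near or under the table median, where RMA compresses folds. Colec12 means were 5.57 to 6.30 in the other lavage groups, with single arrays down to 4.58.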

Other observations

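Transcription factors known from macrophage receptor genes formed a list of 13, of which 12 were tested. From bone marrow 8 of 12 rose and 2 fell, where 20.3% of all genes were higher and 16.1% lower. From fetal liver 6 rose (20.4%) and 0 fell, and from yolk sac 6 rose (19.6%) and 5 fell (23.2%). The medians were 1.18, 0.46 and 0.20, beside -0.02, -0.02 and 0.00 for all genes. Pparg, which directs alveolar macrophage differentiation, rose by 4.73, 2.49 and 3.42. Egr2 rose by 4.75 and 3.96 from the monocytes and changed by -0.95 from yolk sac. Nfe2l2, the regulator of antioxidant genes, rose by 0.99 and 1.23 from the monocytes, with -0.01 from yolk sac (adjusted p = 0.97). Maf, a factor of tissue macrophages, had a mean of 7.96 in yolk sac macrophages and 4.37, under the table median, in their descendants, a fall of at least 10.1-fold. One of the 2 falls from bone marrow was also Maf, with both means under that median (4.54 and 3.76). Against native cells 0 of 12 were called by limma in any transferred group (1.05% to 1.72% of all genes). At an unadjusted p under 0.05 there were 1, 1, 0 and 0 in BM-, FL-, YS- and AM-derived macrophages.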
